A study of Homo sapiens with 9 samples.

Results

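The MHC class I antigen presentation genes were followed as 9 named genes in a human breast cancer line in which acyl-protein thioesterase 1 (APT1) was lowered or raised. The 9 are the heavy chains HLA-B, HLA-C, HLA-E and HLA-F, the light chain B2M, the peptide transporter subunits TAP1 and TAP2, the loading factor TAPBP and the transactivator NLRC5. They were chosen by name from the 58219 genes of the transcript annotation, as a set to hold against the class II genes, whose decline in these libraries was already known. All 9 passed the filter on low counts and stood among the 15233 genes tested.

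Class I molecules are carried by nearly all nucleated cells. A heavy chain pairs with beta-2 microglobulin and holds a short peptide, cut in the cytosol and carried into the endoplasmic reticulum by the TAP transporter, and the complex is shown to CD8+ T cells at the surface. Expression is raised by interferon gamma and by NF-kappaB, and NLRC5 gathers on the promoters with factors of the RFX, CREB and NF-Y families, much as its relative CIITA does on class II promoters. Tumour cells often lose part of this pathway, and class I molecules also hold back natural killer cells.

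The cells were MDA-MB-231, an established breast carcinoma line that the labels class as triple receptor negative. In shAPT1 cells a short hairpin RNA against APT1, delivered by lentivirus with puromycin selection, made a stable knockdown. In APT1wt cells lentivirus carried an APT1 expression construct, and control cells received a lentiviral scramble RNA. Each of the 3 groups had 3 libraries of total RNA. APT1, encoded by LYPLA1, removes palmitate from proteins. No group carried an empty expression vector, so an effect of the construct cannot be told apart from that of APT1. Whether replicate libraries were made from cultures grown apart is not stated by the labels, so p-values measure the spread between these libraries, which may be technical.

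Depth was 12381931 to 18667383 estimated reads per library. LYPLA1 had 38.2, 30.5 and 36.7 TPM (a level scaled for transcript length and library) in shAPT1 and 169, 171 and 170 TPM in APT1wt, against 87.1, 92.7 and 80.5 TPM in control, so each library stood where its label puts it. Between replicates the chi-square was 2.06 to 18.6 per gene, above what counting alone gives, so no library was counted as a copy of another. VIM, an intermediate filament of mesenchymal cells, averaged 2298 ± 82.3 TPM in shAPT1, 1894 ± 86.3 TPM in APT1wt and 2267 ± 138 TPM in control (SD, n = 3 each). Of 5 markers of other breast cells, chosen as low in this line, the oestrogen receptor gene ESR1 stayed at or under 0.219 TPM and the progesterone receptor gene PGR at or under 0.0565 TPM in every library. CDH1 lay between 0.383 and 2.76 TPM, but EPCAM had 7.42 to 10.9 TPM and ERBB2, the HER2 gene, 27.5 to 37.3 TPM, so those last were not low in RNA. None of 10 leukocyte markers reached 1 TPM in any library, and their summed level was 0.692 to 1.4 TPM in shAPT1, 1.11 to 1.7 TPM in APT1wt and 0.593 to 1.31 TPM in control. The summed level of 5 fibroblast markers, of which 2 reached 1 TPM, was 9.64 to 16.1 TPM in shAPT1 and 10 to 12.2 TPM in APT1wt, against 6.95 to 8.98 TPM in control. That of 4 endothelial markers, of which 2 reached 1 TPM, was 3.36 to 4.47 TPM in shAPT1, 1.84 to 3.77 TPM in APT1wt and 1.19 to 2.84 TPM in control. The part of these marker genes in the class I results was not tested.

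RefSeq sequences on GRCh38.p14, from 250 bases before to 50 bases after a transcription start, were found for 7 of the 9 genes, and HLA-E and NLRC5 had no entry. Those of HLA-B and HLA-C, both classical heavy chains, are printed beside those of B2M and TAPBP, which passed in no comparison. That of TAP1, which was lower in APT1wt than in control and in shAPT1, is printed too. Those of HLA-F and TAP2 are not printed. The regulatory letters of the printed sequences can thus be compared. The sequences run 5′ to 3′ in the direction of transcription. Capitals mark matches on either strand to 5 motifs. These are the NF-kappaB motif (GGG and CC with any 5 bases between), the interferon-stimulated response element or ISRE (GAAA, any 2 bases, GAAA), the interferon gamma-activated site (TTC, any 3 bases, GAA), TGACG, which CREB binds, and CCAAT, which NF-Y binds. Adjoining or overlapping matches run together.
HLA-B promoter, chr6:31357130-31357429, minus strand: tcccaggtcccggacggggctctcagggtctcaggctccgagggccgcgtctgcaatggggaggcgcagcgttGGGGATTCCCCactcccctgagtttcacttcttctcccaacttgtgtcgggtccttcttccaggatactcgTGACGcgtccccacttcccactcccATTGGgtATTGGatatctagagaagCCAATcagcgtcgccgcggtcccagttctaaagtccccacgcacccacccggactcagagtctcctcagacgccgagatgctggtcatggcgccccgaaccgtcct
HLA-C promoter, chr6:31272043-31272342, minus strand: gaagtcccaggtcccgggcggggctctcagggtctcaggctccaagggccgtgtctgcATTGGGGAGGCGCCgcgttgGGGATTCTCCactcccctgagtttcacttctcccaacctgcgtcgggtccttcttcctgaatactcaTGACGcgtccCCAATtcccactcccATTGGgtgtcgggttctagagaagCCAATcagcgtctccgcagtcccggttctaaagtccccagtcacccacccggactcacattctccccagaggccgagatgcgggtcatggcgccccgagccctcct
B2M promoter, chr15:44711267-44711566, plus strand: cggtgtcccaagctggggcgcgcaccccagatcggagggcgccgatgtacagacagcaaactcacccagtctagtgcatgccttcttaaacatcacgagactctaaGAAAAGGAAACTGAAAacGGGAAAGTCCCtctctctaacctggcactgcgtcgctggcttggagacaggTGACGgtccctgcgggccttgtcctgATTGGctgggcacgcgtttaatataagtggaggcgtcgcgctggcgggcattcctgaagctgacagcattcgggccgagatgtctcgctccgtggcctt
TAP1 promoter, chr6:32853655-32853954, minus strand: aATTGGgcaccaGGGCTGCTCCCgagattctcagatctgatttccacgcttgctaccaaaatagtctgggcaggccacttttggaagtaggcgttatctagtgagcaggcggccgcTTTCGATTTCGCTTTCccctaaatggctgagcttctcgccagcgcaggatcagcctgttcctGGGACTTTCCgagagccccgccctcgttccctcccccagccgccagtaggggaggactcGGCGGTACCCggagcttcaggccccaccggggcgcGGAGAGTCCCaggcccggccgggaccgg
TAPBP promoter, chr6:33314029-33314328, minus strand: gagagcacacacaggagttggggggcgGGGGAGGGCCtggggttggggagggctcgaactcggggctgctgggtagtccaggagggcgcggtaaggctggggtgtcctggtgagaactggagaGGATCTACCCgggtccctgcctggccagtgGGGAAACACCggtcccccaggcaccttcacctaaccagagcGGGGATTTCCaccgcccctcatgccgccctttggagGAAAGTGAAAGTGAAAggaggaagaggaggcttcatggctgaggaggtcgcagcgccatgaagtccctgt
The promoters of HLA-B and HLA-C were built alike. Both held the NF-kappaB motif at a like distance upstream, as GGGGATTCCC starting 177 bases before the start in HLA-B, where a further match begins 1 base on and each is also read on the other strand, and as GGGATTCTCC at 172 bases in HLA-C. A TGACG followed at 106 bases in HLA-B and 105 bases in HLA-C, and a forward CCAAT stood at 56 bases in both. Neither held the exact ISRE letters in this window, and looser forms of that element were not searched. B2M held a pair of overlapping ISRE matches at 144 and 138 bases, GGGAAAGTCC at 126 bases, TGACG at 75 bases and a reverse CCAAT at 49 bases. TAP1 held overlapping reverse ISRE matches at 134 and 128 bases, and GGGACTTTCC at 72 bases. A second TAP1 promoter in the table, not printed, held no ISRE match but the only interferon gamma-activated site match among the 8 promoters, TTCTGGGAA at 189 bases. TAPBP held a pair of overlapping ISRE matches, each GAAAGTGAAA, at 20 and 14 bases, and GGGGATTTCC at 56 bases.

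Among 35116 promoters of the same length, 58.7% held the NF-kappaB motif, 3.57% the ISRE, 7.66% the interferon gamma-activated site, 24.6% TGACG and 34.6% CCAAT. The ISRE was thus the least common of the 5 motifs, and it was found in promoters of HLA-F, B2M, TAP1, TAP2 and TAPBP. These are exact matches of letters, not measured binding, and a missing match does not show that a working site is absent.

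In shAPT1 cells the class I genes moved little. HLA-C, HLA-E and NLRC5 fell against control, by 0.22 to 0.32 on the log2 scale, none rose, and the other 6 did not pass (edgeR quasi-likelihood test, Benjamini-Hochberg adjusted p under 0.05 over all 15233 tested genes). Over all tested genes, 24.4% passed in either direction, 12.8% as higher and 11.6% as lower. In CPM, read counts scaled to library size with TMM factors, the 3 shAPT1 libraries lay wholly below the 3 control libraries for 4 of the 9 genes and wholly above for none. Over all tested genes the groups stood apart for 37.9%, with shAPT1 below for 18.4% and above for 19.5%. The median log2 fold change of the 9 was -0.14, against -0.004 over all tested genes. The 3 calls thus come from a comparison in which many genes passed, and they were small: with a correction for transcript length, or on the authors' scaled gene table, 1 of the 9 passed (HLA-E). In bulk RNA, fewer cells expressing a gene and less of its RNA per cell cannot be told apart.

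In APT1wt cells 5 of the 9 genes fell against control and none rose with edgeR. HLA-B, HLA-C, HLA-E, TAP1 and TAP2 were lower by 0.22 to 0.45 on the log2 scale, and HLA-F, B2M, TAPBP and NLRC5 did not pass. Over all tested genes, 23.4% passed in either direction, 11.8% as higher and 11.6% as lower. This count of 3568 dropped to 2983, 2423 and 2298 without APT1wt replicates 1, 2 and 3. Without control replicates 1, 2 and 3 it dropped to 2694, 2529 and 2466, and without an shAPT1 library it was 3265 to 4825. APT1wt libraries lay wholly below control libraries for 6 of the 9 genes and wholly above for none. Over all tested genes the groups stood apart for 44.3%, with APT1wt below for 22.1% and above for 22.2%. The median of the 9 was -0.28, against -0.004 over all tested genes. This comparison uses the same 3 control libraries as that of shAPT1, so the declines in both are not independent observations of each other.

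Set directly against APT1wt, shAPT1 cells had more TAP1 and TAP2 and no class I gene that was lower. Over all tested genes 25.1% passed, 12.7% as higher and 12.4% as lower in shAPT1. The counts of 0 in the 3 comparisons, higher against control and lower against APT1wt, were also 0 at an unadjusted p under 0.05 and with DESeq2 and limma-voom. For 4 of the 9 genes (HLA-C, HLA-F, TAP1 and TAP2) the shAPT1 libraries lay wholly above the APT1wt libraries, and for none wholly below. Over all tested genes the groups stood apart for 39.2%, with shAPT1 above for 20% and below for 19.2%. The median of the 9 was 0.11, against 0.001 over all tested genes.

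**Figure D1:**
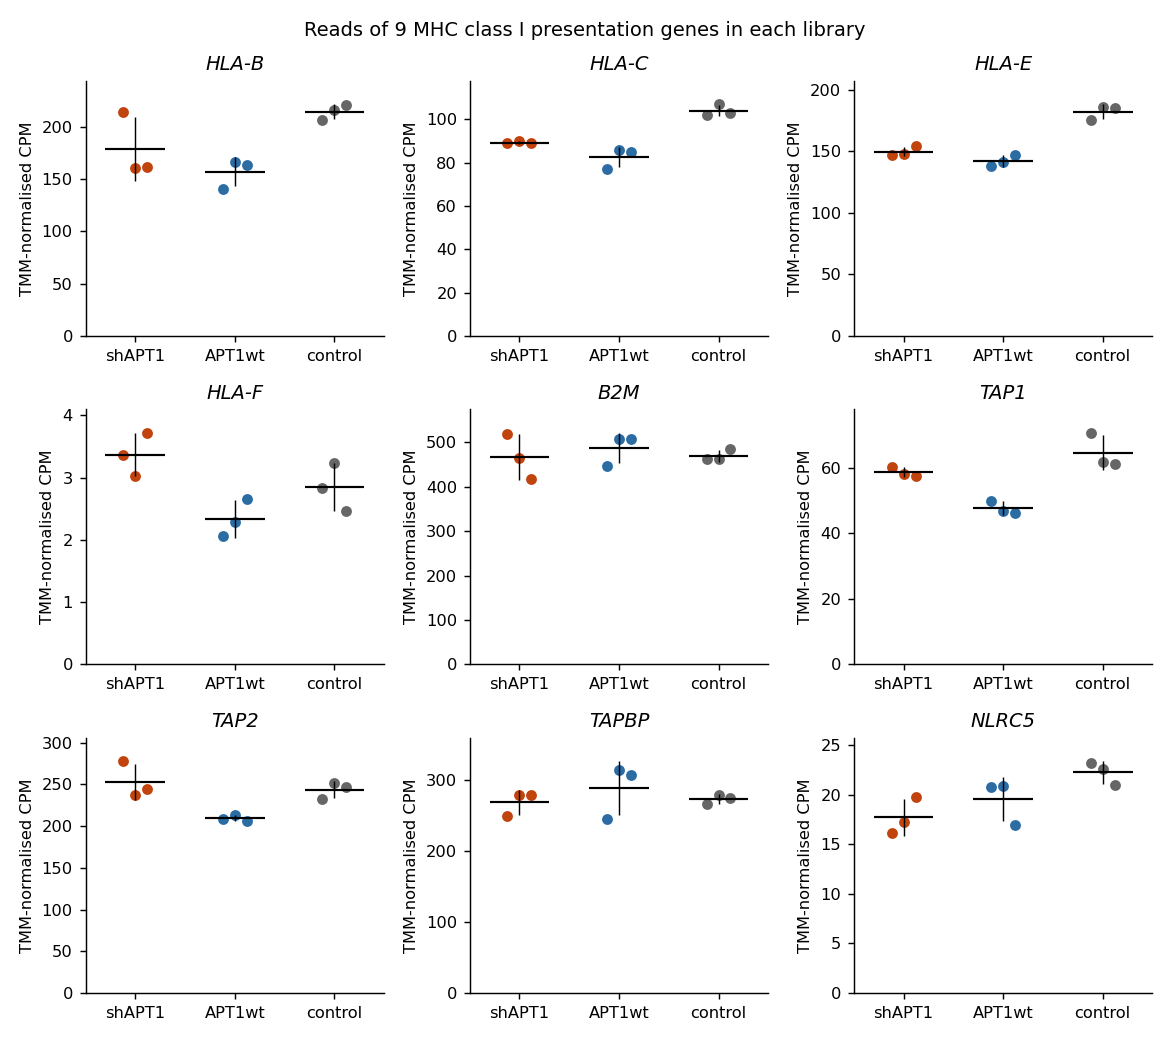
Each panel plots 1 gene, with TMM-normalised CPM on the vertical axis from 0 and shAPT1, APT1wt and control on the horizontal axis; points are libraries, horizontal bars are means and vertical lines are ± SD (n = 3). For HLA-C and HLA-E the shAPT1 and APT1wt libraries sit below all control libraries, TAP1 and TAP2 are lowest in APT1wt, and B2M and TAPBP overlap in all groups.

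By level per transcript length, B2M was the most abundant of the 9 in every group, at 1286 ± 153 TPM in shAPT1, 1271 ± 101 TPM in APT1wt and 1231 ± 40.9 TPM in control (SD, n = 3 each). HLA-B came next, at 264 ± 62.1 TPM in shAPT1, 195 ± 21.3 TPM in APT1wt and 277 ± 4.68 TPM in control. TAPBP, TAP2, HLA-E and HLA-C formed a middle rank, between 109 and 119 TPM in control, where neighbours in the order differed by less than their SDs. TAP1 lay below them at 31.9 ± 1.61 TPM in shAPT1, 24.5 ± 1.38 TPM in APT1wt and 33.7 ± 2.24 TPM in control. NLRC5 averaged 15.8 ± 3.15 TPM in shAPT1, 17.9 ± 4.71 TPM in APT1wt and 17.9 ± 2.72 TPM in control. HLA-F was the lowest, at 6.27 ± 1.57 TPM in shAPT1, 4.44 ± 1.24 TPM in APT1wt and 4.67 ± 1.31 TPM in control.

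The heavy chains form the peptide groove, and all 4 genes lie in the MHC on chromosome 6. HLA-B (GENCODE 29 on GRCh38, chr6:31269491-31357188, minus strand) is a classical, highly polymorphic chain. Its gene model overlaps that of HLA-C on the same strand. HLA-B had 214, 161 and 162 CPM in shAPT1 and 141, 166 and 164 CPM in APT1wt, against 207, 216 and 221 CPM in control. All APT1wt libraries were below all control libraries, while shAPT1 replicate 1 lay among the controls and the other two well below. HLA-B fell in APT1wt (log2 fold change -0.45 ± 0.10 SE, edgeR adjusted p = 0.0044), and its value in shAPT1 was -0.27 ± 0.10 (adjusted p = 0.064). The shAPT1 value lay near the threshold. It passed without shAPT1 replicate 1 (-0.41, adjusted p = 4.8e-04) and, with every library kept, with DESeq2 (-0.26, adjusted p = 0.038), limma-voom (-0.28, adjusted p = 0.049) or no filter on low counts (-0.26, adjusted p = 0.0048); in the other 16 of 20 settings it did not.

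HLA-C (chr6:31268749-31272130, minus strand) is the classical chain that serves as the main ligand of killer-cell immunoglobulin-like receptors. It had 88.9, 90 and 89 CPM in shAPT1 and 77.2, 85.9 and 84.8 CPM in APT1wt, against 102, 107 and 103 CPM in control. The 3 groups did not overlap, with control highest and APT1wt lowest. HLA-C fell in shAPT1 (-0.22 ± 0.06, edgeR adjusted p = 0.017) and in APT1wt (-0.34 ± 0.06, adjusted p = 0.0013), and shAPT1 and APT1wt did not differ past the threshold (0.11 ± 0.06, adjusted p = 0.2). The shAPT1 call was lost without control replicate 2 (adjusted p = 0.081) or control replicate 3 (adjusted p = 0.057).

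HLA-E (chr6:30489467-30494205, plus strand) is a non-classical chain that presents signal peptides of other class I chains to the killer-cell receptor NKG2A. It had 147, 148 and 154 CPM in shAPT1 and 138, 141 and 147 CPM in APT1wt, against 175, 186 and 185 CPM in control. Every control library was above every library of the other two groups. HLA-E fell in shAPT1 (-0.28 ± 0.06, edgeR adjusted p = 0.0025) and in APT1wt (-0.36 ± 0.06, adjusted p = 4.7e-04). Both calls held in all 20 other settings tried, with adjusted p up to 0.019 in shAPT1 and up to 0.0047 in APT1wt. HLA-E was the only one of the 9 genes to pass against control in both groups under all of them.

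HLA-F (chr6:29722775-29738528, plus strand), a non-classical chain found mostly inside the cell, was scarce, with 28 to 65 estimated reads per library. It had 3.36, 3.02 and 3.72 CPM in shAPT1 and 2.06, 2.29 and 2.66 CPM in APT1wt, against 2.84, 3.23 and 2.47 CPM in control. The shAPT1 libraries were all above the APT1wt libraries and overlapped control. Its log2 fold changes were 0.25 ± 0.20 in shAPT1 against control, -0.28 ± 0.21 in APT1wt against control and 0.53 ± 0.20 in shAPT1 against APT1wt, with edgeR adjusted p of 0.39, 0.37 and 0.065. With library totals in place of TMM, shAPT1 against APT1wt passed (0.59 ± 0.20, adjusted p = 0.043), and in the other 19 settings it did not.

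Heavy-chain genes share stretches of sequence with other genes, and reads that match several can be split differently from library to library. Of the 31-base words of the leading transcript, 32.5% in HLA-B, 20.2% in HLA-C, 12.7% in HLA-E and 35.8% in HLA-F also occurred in another gene's transcripts. Those found in another of the 9 genes were fewer, 12.5% in HLA-B, 13.7% in HLA-C, 4.55% in HLA-E and 0.117% in HLA-F. In HLA-B, HLA-E and HLA-F most shared words thus lay only with genes outside the 9. In HLA-C most of them also occurred in another of the 9. The reads of the 4 were added into 1 row, whose value does not depend on the split among the 4 but still does on the split with genes outside them. The sum was 453, 402 and 408 CPM in shAPT1 and 359, 395 and 399 CPM in APT1wt, against 487, 513 and 512 CPM in control. Both groups lay below control with no overlap. The sum fell in shAPT1 (-0.26 ± 0.07, edgeR adjusted p = 0.0098) and in APT1wt (-0.39 ± 0.07, adjusted p = 6.1e-04), and shAPT1 against APT1wt gave 0.13 ± 0.07 (adjusted p = 0.16). Without shAPT1 replicate 2 the shAPT1 value was -0.23 (adjusted p = 0.052). With every class I heavy-chain gene and pseudogene of the annotation in the sum as well, 18 in all, the values were -0.28 ± 0.06 in shAPT1 (adjusted p = 0.0041) and -0.34 ± 0.06 in APT1wt (adjusted p = 0.0013).

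B2M, the shared light chain without which heavy chains are not stable at the surface, lies outside the MHC (chr15:44711487-44718877, plus strand). It had 520, 464 and 417 CPM in shAPT1 and 448, 508 and 507 CPM in APT1wt, against 463, 462 and 486 CPM in control. The 3 groups overlapped, and the shAPT1 libraries spread most widely. The log2 fold change was -0.01 ± 0.08 in shAPT1 (edgeR adjusted p = 0.94) and 0.05 ± 0.08 in APT1wt (adjusted p = 0.68). None of the 31-base words of the leading B2M transcript occurred in another gene, and its other transcripts were not searched.

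The balance of light to heavy chain RNA thus differed between groups. The ratio of B2M TPM to the summed TPM of the 4 heavy chains was 2.73, 2.88 and 2.77 in shAPT1 and 3.44, 3.52 and 3.35 in APT1wt, against 2.45, 2.42 and 2.49 in control. The groups did not overlap, in the order APT1wt, shAPT1, control. The log2 difference of the ratio was 0.18 in shAPT1 against control, 0.48 in APT1wt against control and -0.30 in shAPT1 against APT1wt. Each had a two-sided exact permutation p of 0.1, which is the smallest that 3 against 3 libraries can give.

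**Figure D2:**
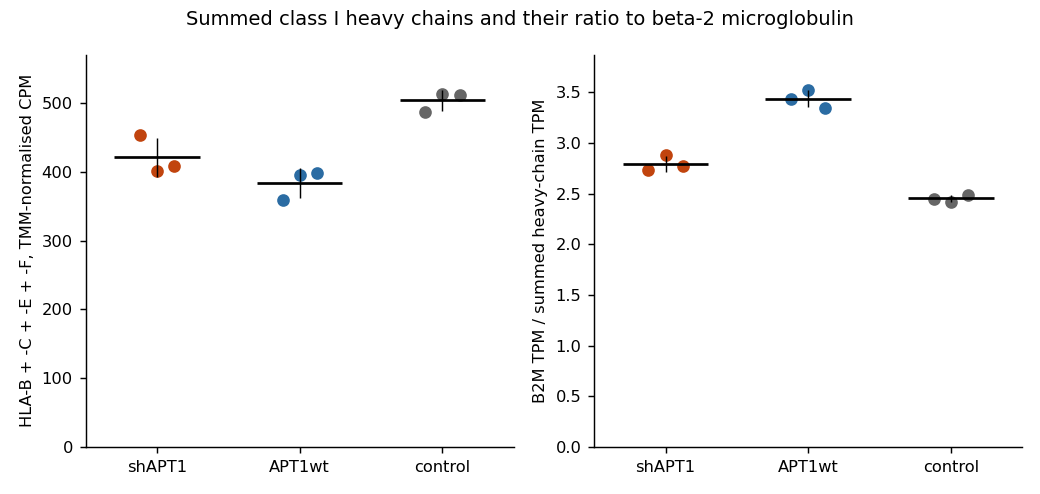
The left panel plots the summed TMM-normalised CPM of HLA-B, HLA-C, HLA-E and HLA-F, and the right panel the ratio of B2M TPM to their summed TPM, for shAPT1, APT1wt and control; points are libraries, bars are means and lines are ± SD (n = 3). The sum averaged 421 CPM in shAPT1 and 384 CPM in APT1wt, against 504 CPM in control, and the ratio averaged 2.79 in shAPT1 and 3.43 in APT1wt, against 2.46 in control.

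TAP1 and TAP2 form the transporter that brings peptides into the endoplasmic reticulum. TAP1 (chr6:32845209-32853978, minus strand) had 60.3, 58.1 and 57.5 CPM in shAPT1 and 50, 46.9 and 46.1 CPM in APT1wt, against 70.7, 61.8 and 61.1 CPM in control. APT1wt libraries were the lowest, and shAPT1 libraries lay between them and the controls without overlap. TAP1 fell in APT1wt against control (-0.44 ± 0.07, edgeR adjusted p = 5.8e-04) and was higher in shAPT1 than in APT1wt (0.30 ± 0.07, adjusted p = 0.0076). In shAPT1 against control it gave -0.14 ± 0.07 (adjusted p = 0.18). The APT1wt decline and the difference between shAPT1 and APT1wt held in all 20 other settings. TAP1 overlaps the proteasome gene PSMB9 on the other strand, and 16.4% of the 31-base words of the leading TAP1 transcript occurred in another gene. TAP1 had 575 to 1016 estimated reads per library and PSMB9 had 119 to 196.

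TAP2 (chr6:32821833-32838780, minus strand) had 278, 237 and 244 CPM in shAPT1 and 209, 214 and 206 CPM in APT1wt, against 232, 252 and 247 CPM in control. The APT1wt libraries were below all others, while shAPT1 and control overlapped. TAP2 fell in APT1wt against control (-0.22 ± 0.07, edgeR adjusted p = 0.031) and was higher in shAPT1 than in APT1wt (0.27 ± 0.07, adjusted p = 0.0097). Against control, shAPT1 gave 0.05 ± 0.07 (adjusted p = 0.63). The APT1wt call was lost in 7 of 20 other settings: when low-count genes were kept (adjusted p = 0.052), with the deviation of neighbouring genes removed (0.058), and without control replicate 2 (adjusted p = 0.12), control replicate 3 (0.1), APT1wt replicate 1 (0.075), APT1wt replicate 2 (0.075) or APT1wt replicate 3 (0.11). With a correction for transcript length the values against control were -0.18 in shAPT1 and -0.51 in APT1wt. Of the 31-base words of its leading transcript, 36% occurred in another gene; a gene model that overlaps TAP2 on the same strand had 0 to 66 estimated reads per library.

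TAPBP, or tapasin, tethers class I molecules to the transporter and edits the peptides they take up (chr6:33299694-33314387, minus strand). It had 249, 280 and 279 CPM in shAPT1 and 246, 315 and 307 CPM in APT1wt, against 266, 280 and 275 CPM in control. Replicate 1 was the lowest library of each group, and all groups overlapped. Its log2 fold changes were -0.03 ± 0.08 in shAPT1, 0.08 ± 0.08 in APT1wt and -0.10 ± 0.08 in shAPT1 against APT1wt, with edgeR adjusted p of 0.86, 0.56 and 0.41.

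NLRC5, the transactivator of class I promoters, lies on chromosome 16 (chr16:56989485-57083531, plus strand). It had 16.1, 17.3 and 19.8 CPM in shAPT1 and 20.8, 20.9 and 17 CPM in APT1wt, against 23.2, 22.6 and 21 CPM in control. Both groups lay below control, APT1wt by a narrow margin. NLRC5 fell in shAPT1 (-0.32 ± 0.11, edgeR adjusted p = 0.041), and APT1wt gave -0.19 ± 0.11 (adjusted p = 0.22). The shAPT1 call was the least stable of all: it was lost in 12 of 20 other settings, with adjusted p of 0.12, 0.11 and 0.064 without control replicates 1, 2 and 3, 0.093 and 0.12 without shAPT1 replicates 1 and 2, and 0.05 without APT1wt replicate 2. With a correction for transcript length it was -0.24 ± 0.19 (adjusted p = 0.44).

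The gene totals hid a mixture of transcripts. The leading HLA-B transcript, the coding ENST00000412585.6, had 190, 140 and 166 TPM in shAPT1 and 128, 161 and 158 TPM in APT1wt, against 181, 211 and 211 TPM in control. A shorter coding transcript, ENST00000640615.1 of 240 bases, had 45.1, 45.8 and 24.7 TPM in shAPT1. It had 8.01, 17.2 and 41.1 TPM in APT1wt, against 42, 25.4 and 32.9 TPM in control. The retained-intron transcript ENST00000481849.5 of 753 bases had 91.2, 51.1 and 18.2 TPM in shAPT1 and 29.1, 18.2 and 9.21 TPM in APT1wt, against 40.9, 35.6 and 30.2 TPM in control. The high HLA-B total of shAPT1 replicate 1 thus went with a high level of this retained-intron form, 91.2 TPM, which no other library reached. For HLA-C, most of the TPM in 8 of 9 libraries lay in ENST00000376237.8, annotated as a target of nonsense-mediated decay, and nearly all the rest in the coding ENST00000376228.9, which is 2 bases shorter. In shAPT1 replicate 2 the coding form led, at 52.6 TPM beside 40.5 TPM. The coding share of HLA-C TPM was 1.43%, 56.6% and 25.3% in shAPT1 and 31.8%, 4.69% and 8.51% in APT1wt, against 12.9%, 7.84% and 18% in control. Within shAPT1 alone it spanned more than the group means differed, and HLA-C is therefore given by its gene total.

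TAP2 had 5 transcripts with a mean of at least 5 TPM in some group. The full-length coding form ENST00000374897.2, of 5684 bases, had 61.6, 51.5 and 57.3 TPM in shAPT1 and 48.3, 48.4 and 44.9 TPM in APT1wt, against 49.1, 52.4 and 57.2 TPM in control. The short processed transcript ENST00000485701.1 had 31, 27.4 and 26.6 TPM in shAPT1 and 19.3, 20.3 and 11.6 TPM in APT1wt, against 38.1, 33.7 and 42.3 TPM in control. The short form was ordered control, shAPT1, APT1wt with no overlap, while the long form overlapped between shAPT1 and control. For B2M the coding ENST00000544417.5 held 33.5% of the TPM in shAPT1, 33.6% in APT1wt and 33.9% in control, and ENST00000561424.5, annotated as a target of nonsense-mediated decay, held 49.8%, 51.6% and 51.2% in the same groups. HLA-E, TAP1 and TAPBP were mainly 1 coding transcript each, with shares of at least 84.5% in every group mean.

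**Figure D3:**
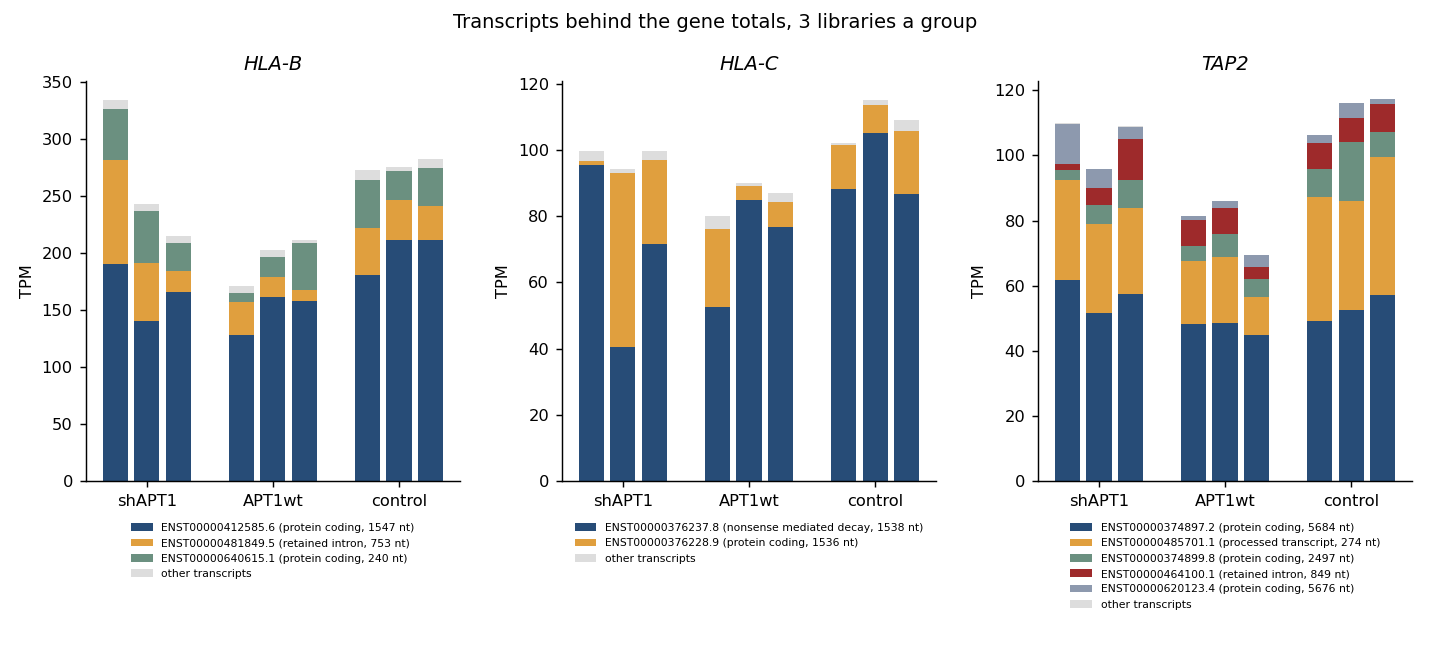
Stacked bars give TPM of the transcripts of HLA-B, HLA-C and TAP2 with a mean of at least 5 TPM in some group, 1 bar per library, for shAPT1, APT1wt and control, with the rest in grey. The HLA-B retained-intron form reaches 91.2 TPM in shAPT1 replicate 1, and the HLA-C split between near-identical transcripts varies within every group.

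Other genes of class I peptide supply and loading moved little. Of 18 such genes, all tested, 1 rose and none fell in shAPT1 against control, and 1 rose and none fell in APT1wt against control with edgeR. Over all tested genes, 24.4% passed in shAPT1 against control and 23.4% in APT1wt against control. At an unadjusted p under 0.05, 3 were lower in shAPT1 and 1 in APT1wt, and with DESeq2 or limma-voom none was. The gene that rose in both comparisons was PSME1, a subunit of the proteasome activator PA28. It had 145, 148 and 160 TPM in shAPT1 and 139, 163 and 160 TPM in APT1wt, against 118, 123 and 118 TPM in control. Its log2 fold change was 0.27 ± 0.07 in shAPT1 (edgeR adjusted p = 0.011) and 0.38 ± 0.07 in APT1wt (adjusted p = 0.0014). Between shAPT1 and APT1wt, UGGT1, the glucosyltransferase that checks glycoprotein folding, was lower by 0.34 ± 0.06 in shAPT1 (adjusted p = 0.0016), and the chaperone calnexin, CANX, was lower by 0.19 ± 0.06 (adjusted p = 0.03). PSMB8 and PSMB9, the inducible proteasome subunits encoded beside TAP1 and TAP2, did not pass in any comparison; PSMB8 averaged 51.2 ± 5.43 TPM in shAPT1, 47.6 ± 5.22 TPM in APT1wt and 49.8 ± 3.91 TPM in control (SD, n = 3 each).

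Genes of class I transcription and interferon-gamma signalling gave calls in both directions against control, at shares to be read against those of all tested genes. In shAPT1 against control, 1 of 18 rose and 4 fell, with a median of -0.035, where 24.4% of all tested genes passed. SOCS1, an inhibitor of JAK signalling, fell to 2.63, 2.33 and 2.47 TPM in shAPT1, against 7.22, 5.54 and 7.09 TPM in control (-1.50 ± 0.20, edgeR adjusted p = 9.1e-05). NFKB1, which encodes the p50 subunit of NF-kappaB, fell by 0.67 ± 0.07 on the log2 scale (adjusted p = 7.9e-06), and RFX5, a subunit of the RFX complex on class I and class II promoters, by 0.25 ± 0.08 (adjusted p = 0.043). IFNGR1, the ligand-binding chain of the interferon-gamma receptor, rose to 41.7, 30.8 and 31 TPM in shAPT1, against 18.8, 18.8 and 21.9 TPM in control (0.70 ± 0.11, adjusted p = 3.2e-04).

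In APT1wt against control, 4 of the 18 rose and 2 fell, with a median of 0.038, where 23.4% of all tested genes passed. RFXAP, another RFX subunit, rose by 0.61 ± 0.15 on the log2 scale (edgeR adjusted p = 0.0078), IFNGR1 by 0.57 ± 0.11 (adjusted p = 0.0017) and IRF1, an interferon-induced activator of class I genes, by 0.47 ± 0.08 (adjusted p = 4.9e-04). RFX5 fell by 0.37 ± 0.09 (adjusted p = 0.0059). IRF1 had 37.5, 39.6 and 42.5 TPM in APT1wt, above all control libraries at 29.8, 30.5 and 31 TPM. Set directly against APT1wt, shAPT1 cells had 5 of the 18 lower and none higher, where 25.1% of all tested genes passed. Among them were SOCS1 (-1.05 ± 0.20, edgeR adjusted p = 0.0017), RFXAP (-0.77 ± 0.15, adjusted p = 0.0016), IRF1 (-0.52 ± 0.07, adjusted p = 2.0e-04) and NFKB1 (-0.39 ± 0.07, adjusted p = 7.6e-04). Of 10 interferon response genes 9 were tested. In shAPT1 against control 3 rose and none fell, beside 12.8% higher and 11.6% lower over all tested genes. In APT1wt against control 2 rose and 3 fell, beside 11.8% higher and 11.6% lower over all tested genes. In shAPT1 against APT1wt 5 were higher and 1 lower, beside 12.7% higher and 12.4% lower over all tested genes.

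Class I relatives and ligands of killer-cell receptors were also read, and 11 of 15 were tested. In shAPT1 against control 2 rose and 2 fell, beside 12.8% higher and 11.6% lower over all tested genes. In APT1wt against control none passed with edgeR, DESeq2 or limma-voom, and 1 was lower at an unadjusted p under 0.05 (MICB). Over all tested genes 23.4% passed there with edgeR. MICA, a stress-induced ligand of the activating receptor NKG2D, had 62.2, 64.3 and 70.5 TPM in shAPT1 and 41.2, 43.1 and 42.9 TPM in APT1wt, against 41.5, 49.5 and 42.9 TPM in control. All shAPT1 libraries were above all others, and MICA rose in shAPT1 against control (0.46 ± 0.08, edgeR adjusted p = 5.4e-04) and was higher than in APT1wt (0.52 ± 0.08, adjusted p = 1.9e-04). ULBP2, another NKG2D ligand, rose in shAPT1 against control (0.44 ± 0.09, adjusted p = 0.0033) and was higher than in APT1wt (0.47 ± 0.09, adjusted p = 0.0019). MICB was higher in shAPT1 than in APT1wt (0.31 ± 0.06, adjusted p = 0.0022). RAET1E, a scarce NKG2D ligand at 1.72 to 2.47 TPM in shAPT1, fell against control (-0.94 ± 0.26, adjusted p = 0.017), and HFE, a class I relative in iron uptake, fell by 0.47 ± 0.13 (adjusted p = 0.016).

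The class II genes, which present peptides to CD4+ T cells, fell by larger amounts at the median in the same libraries, as was known when the class I genes were chosen. Of 13 class II genes, all tested, 11 fell and none rose in shAPT1 against control, with a median log2 fold change of -1.27, and 10 fell and none rose in APT1wt against control, with a median of -1.49. Over all tested genes, 11.6% were lower in shAPT1 against control and 11.6% in APT1wt against control. CIITA, the class II transactivator and relative of NLRC5, fell to 3.51, 3.4 and 3.7 TPM in shAPT1 and 6.38, 7.88 and 4.96 TPM in APT1wt, against 10.8, 15.8 and 11.6 TPM in control. Its log2 fold change was -1.81 ± 0.11 in shAPT1 (edgeR adjusted p = 6.2e-08) and -1.0 ± 0.10 in APT1wt (adjusted p = 9.9e-06), beside -0.32 and -0.19 for NLRC5. HLA-DRA, a class II alpha chain, fell to 57.9, 48.2 and 50.1 TPM in shAPT1 and 39.8, 52.5 and 46 TPM in APT1wt, against 135, 169 and 162 TPM in control. In APT1wt against control the largest class II declines were those of HLA-DPB1 (-2.06 ± 0.17, adjusted p = 1.1e-06) and HLA-DRB1 (-2.01 ± 0.12, adjusted p = 4.8e-08). The class II genes that did not pass were HLA-DQA1 (-0.25 ± 0.30 in shAPT1 and -0.38 ± 0.30 in APT1wt), HLA-DOB (0.25 ± 0.51 in shAPT1 and 0.94 ± 0.47 in APT1wt) and, in APT1wt, HLA-DOA (-0.89 ± 0.32, adjusted p = 0.056).

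Between shAPT1 and APT1wt the class II genes were nearer each other: 4 were higher and 1 lower in shAPT1, with a median of 0.10. Over all tested genes, 12.7% were higher and 12.4% lower in shAPT1. HLA-DPB1 was higher by 0.76 ± 0.18 (edgeR adjusted p = 0.0074), HLA-DMA by 0.51 ± 0.14 (adjusted p = 0.019) and HLA-DPA1 by 0.50 ± 0.12 (adjusted p = 0.0098). CIITA was lower in shAPT1 (-0.81 ± 0.12, adjusted p = 1.7e-04). TAP1 and TAP2, which lie among the class II genes on chromosome 6, also had more RNA in shAPT1 than in APT1wt, at 0.30 and 0.27.

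**Figure D4:**
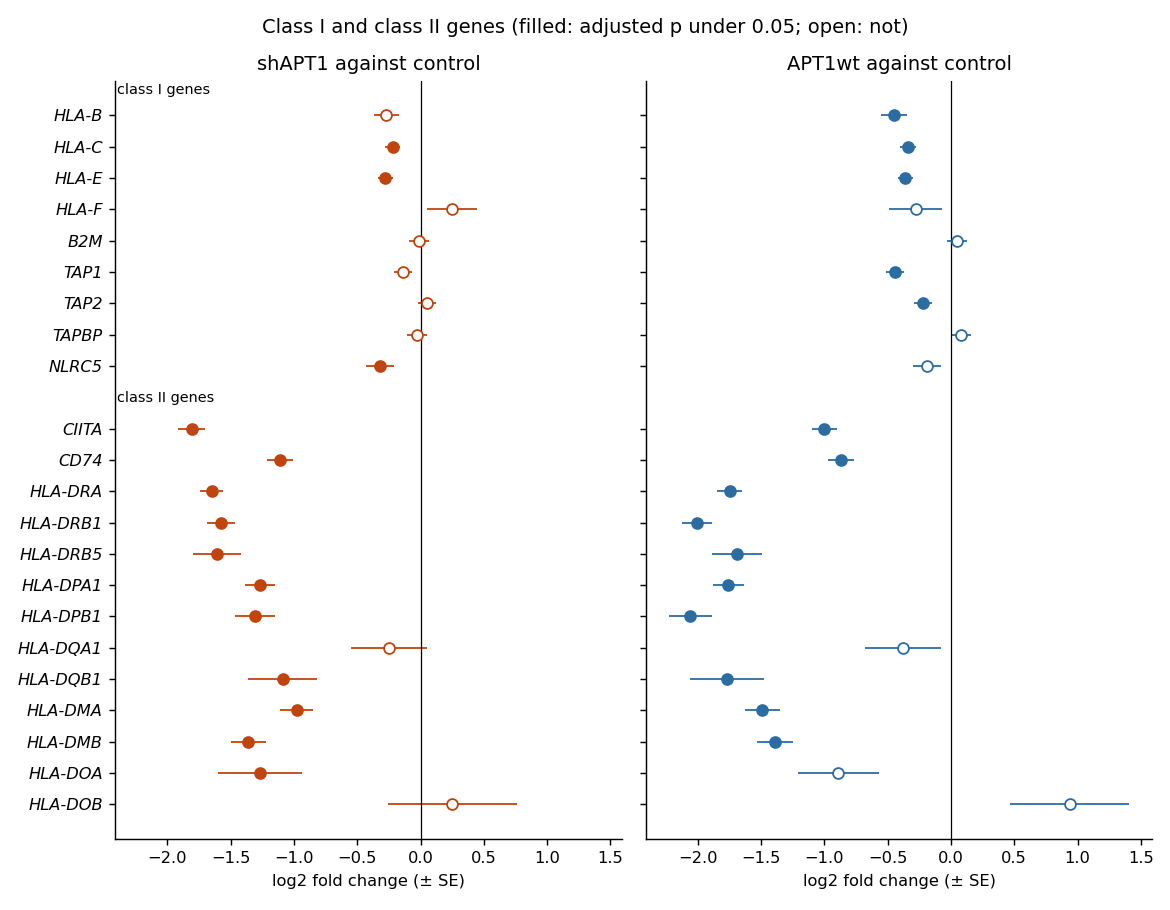
Log2 fold changes with SE (horizontal axis) of the 9 class I genes and 13 class II genes in shAPT1 against control and APT1wt against control, from the edgeR fit of all 9 libraries; filled points have an adjusted p under 0.05. Class I values lie between -0.45 and 0.25, whereas most class II values lie near or below -1; both panels share the control libraries.

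Over the 9 libraries, HLA-C and HLA-E varied together (Pearson r = 0.96 of log2 CPM), as did HLA-B and HLA-C (r = 0.86), while B2M and HLA-C did not (r = -0.04). TAP1 varied with HLA-C (r = 0.77) and with TAP2 (r = 0.70). NLRC5 had r of 0.57 with HLA-E and 0.48 with HLA-C, and 0.21 with HLA-B. These describe 9 libraries that fall into 3 groups, and include the differences between groups and the reads that heavy chains share. Among 9861 protein-coding genes with a mean of at least 5 TPM, those most like the mean standardised profile of the 9 class I genes were ZGRF1 (r = 0.98), HLA-DPB1 (r = 0.97), MIOS (r = 0.96), VKORC1L1 (r = 0.95) and EPB41L4B (r = 0.95). Those most opposed were PARP4 and CRACR2A (r = -0.96 each) and ATP5O (r = -0.95).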

How the data were processed

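FastQC, Salmon and DESeq2, with build GRCh38.p10, are the tools named per the submitters' processing notes; versions are not given in the sources used here. The deposited transcript files give estimated counts and TPM by the authors, with an effective length per transcript. A deposited table per gene holds a scaled signal; its scaling is not stated.

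Estimated counts were added up by gene, rounded and tested in all 9 libraries with edgeR 4.0.16 (filterByExpr, TMM, quasi-likelihood F test with group as the only term, Benjamini-Hochberg over 15233 genes at 0.05; R 4.3.3). The fit was tested on simulated data with 200 genes changed 2-fold in shAPT1, of which 161 were recovered, with 9 false calls among 170. Changes as small as those of the class I genes were not simulated. TPM was summed per gene for levels. Intervals and SEs cover spread between libraries. Each edgeR SE was worked back from the test, as the absolute log2 fold change divided by the square root of the F statistic. Alternatives were other scalings (RLE, library totals), DESeq2 1.42.0, limma-voom 3.58.1, other filters (none, or 20 reads in 3 libraries), a length offset, the deposited table on log2(value + 1), pairwise fits, a replicate block, removal of the median deviation of 50 neighbouring genes on each side, and leaving out each library. Positions were read from GENCODE 29 (GRCh38; 15189 of 15233 tested genes matched), and promoters from RefSeq on GRCh38.p14. Transcript sequences for shared words were those of GENCODE 29 that are also in the files, 199024 of 199166.

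The 9 genes and the lists were chosen with earlier results of these data known. All 9 are named in every comparison; from each other list, up to 4 genes with the largest change past 0.05 were eligible; PSMB8, PSMB9, MICB in APT1wt, and the class II genes that did not pass were chosen after their values were seen. Genes most like the 9 were the 5 highest and 3 lowest correlations. Over all tested genes, deviations of same-numbered libraries correlated at -0.051 to 0.103, which gave no sign of pairing by replicate number. This does not settle it for single genes, such as TAPBP, which was lowest in replicate 1 of each group.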

Additional observations from a re-analysis of the deposited data

How the results depend on the processing

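The count of class I calls moved most in shAPT1 against control: 3 genes were lower in the analysis reported, 1 (HLA-E) with the transcript length offset or on the deposited table, and 1 to 3 when a library was left out. Over all genes the calls were 3719 in shAPT1 against control, 3568 in APT1wt against control and 3829 in shAPT1 against APT1wt; the length offset gave 2307, 2230 and 2373, the deposited table gave 2326, 2236 and 2357, and removal of neighbouring genes 2340 in APT1wt against control, where leaving out a library gave 2298 to 4825. The heavy-chain sum in shAPT1 against control ranged from -0.31 to -0.23 with a library left out, and in shAPT1 against APT1wt it passed with library totals alone (0.19, edgeR adjusted p = 0.047). That scaling also moved the split of calls in shAPT1 against APT1wt to 2628 higher and 1327 lower, against 1941 and 1888. Values near 0 changed sign. B2M in shAPT1 against control was 0.02 with library totals, 0.00 with the length offset, and -0.09 to 0.07 with a library left out; in shAPT1 against APT1wt it was -0.14 to 0.02 with a library left out. TAP2 in shAPT1 against control was -0.18 with the length offset and on the deposited table, and -0.02 to 0.10 with a library left out. TAPBP there was 0.00 with library totals and -0.06 to 0.03 with a library left out, and NLRC5 in APT1wt was 0.00 with the length offset. The cause was not tested. With the replicate block, 2 class I genes (HLA-C and HLA-E) were lower in shAPT1. The calls over all genes were then 3754, 3625 and 3872. Whether the numbers pair the libraries is not stated by the labels. In the other comparisons, the TAP2 call in APT1wt was lost in 7 of 20 settings and HLA-F in shAPT1 against APT1wt was gained with library totals. HLA-F had 28 to 65 reads per library, the fewest of the 9.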
